A study of Homo sapiens with 2 samples.

Results

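The miR-193 and miR-365 hairpins were followed in A549 cells, a human lung adenocarcinoma line, in small RNA libraries made from cells kept for 24 h at 20% oxygen (normoxia) or 1.2% oxygen (hypoxia). There was 1 library per condition, and the labels name no other treatment and no genetic change in either. The names hsa-miR-193a-3p, hsa-miR-193a-5p, hsa-miR-193b-3p, hsa-miR-193b-5p, hsa-miR-365a-3p and hsa-miR-365b-3p were selected by name, with their counts in both libraries already known, so their levels and ratios are given as a description and carry no test. They are 6 of the 859 mature miRNA names in a table of 5475 small RNA features, and they stand for 5 measured sequences because hsa-miR-365a-3p and hsa-miR-365b-3p are identical. The unit throughout is CPM, counts scaled to a total of 1000000 on mature miRNAs, and these totals were 4514818 in normoxia and 8600160 in hypoxia. Intervals are at 95% and cover counting error only, since reads were amplified by PCR without molecular identifiers and no culture was repeated. The table lists no messenger RNAs, so the identity of the line was not checked against protein-coding markers.

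A miRNA hairpin is cut by Drosha and then Dicer into a short duplex, and usually the strand from one arm is kept by Argonaute while the strand from the other arm is degraded. The kept strand pairs with target transcripts mainly through its seed, bases 2 to 8 from the 5′-end. miR-193a and miR-193b are paralogs described as growth-restraining miRNAs in several tumours, with MCL1, KIT, CCND1 and PLAU among the targets studied. miR-365 is encoded next to each of them, and IL6, HDAC4 and the lung transcription factor gene NKX2-1 are among its studied targets. The chromosome 16 pair is also known from work on brown adipocyte differentiation.

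The mature sequences are shown first, because they decide what a count can say about a locus. Capitals mark the seed, sequences are from RefSeq (GRCh38.p14), and for each of these names that is listed the table holds the same sequence with 1 further genomic base at each end.
hsa-miR-193b-3p: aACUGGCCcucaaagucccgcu
hsa-miR-193a-3p: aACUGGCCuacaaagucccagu
hsa-miR-193b-5p: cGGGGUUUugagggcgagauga
hsa-miR-193a-5p: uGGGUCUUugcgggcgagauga
hsa-miR-365a-3p: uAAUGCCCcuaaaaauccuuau
hsa-miR-365b-3p: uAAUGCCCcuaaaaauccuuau
hsa-miR-365a-5p: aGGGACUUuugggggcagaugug
hsa-miR-365b-5p: aGGGACUUucaggggcagcugu

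The 3p arms of miR-193b and miR-193a share the seed ACUGGCC and differ at 4 of 22 positions, all outside the seed. Counted from the 5′-end and written from miR-193b to miR-193a, these are C9U, U10A, G20A and C21G. Their 5p arms also differ at 4 positions (C1U, G5U, U6C and A11C), and 2 of these lie in the seed, so the 5p arms do not share one. The miR-365 3p arms have the seed AAUGCCC and differ at 0 positions, whereas their 5p arms differ in sequence and could tell the miR-365 loci apart. Of the 858 listed names with a usable sequence, 0 others carry any of the 4 seeds found among the 6 names. miR-365-3p holds 31.8% G and C, against 50% for miR-193a-3p and 59.1% for miR-193b-3p.

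In GRCh38, MIR193B (chr16:14303967-14304049) and MIR365A (chr16:14309285-14309371) are plus-strand hairpins separated by 5235 bases. Both sit in introns of the lincRNA gene MIR193BHG, of which 4 annotated transcripts span them, with 0 having an exon over either hairpin. RefSeq also lists this host gene under the names HypERlnc and lincNORS, used in studies of oxygen-dependent transcripts. MIR193A (chr17:31559996-31560083) and MIR365B (chr17:31575411-31575521) are also on the plus strand and 15327 bases apart. No other GENCODE version 29 gene overlaps MIR193A, and MIR365B lies within an exon of the lincRNA gene AC003101.1, MIR365BHG in RefSeq. In the hg19 positions of the table, which include the flanking bases, miR-193b-3p is at chr16:14397873-14397896, miR-193a-3p at chr17:29887068-29887091, miR-365a-3p at chr16:14403196-14403219 and miR-365b-3p at chr17:29902496-29902519.

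**Figure D1:**
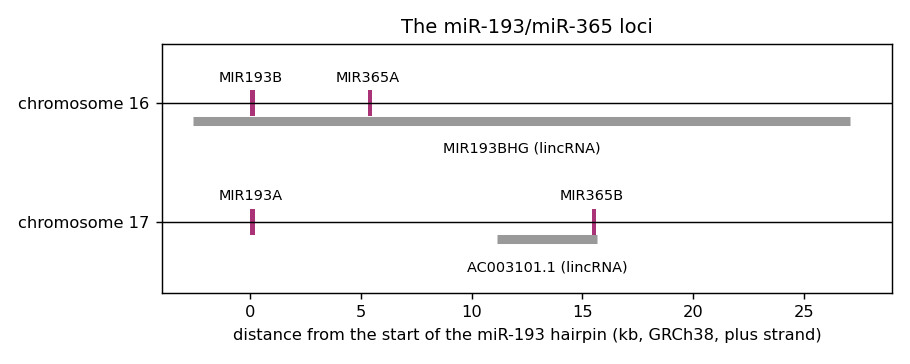
Map of both loci, with the distance from the start of the miR-193 hairpin in kb on the horizontal axis and 1 row per chromosome. Purple boxes are hairpins (drawn wider than their 83 to 111 bases so that they can be seen), grey bars are the lincRNA genes that overlap them, and the gap between the hairpins is 5235 bases on chromosome 16 and 15327 on chromosome 17.

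The hairpins, with the mature arms in capitals, show where each product comes from.
MIR193B: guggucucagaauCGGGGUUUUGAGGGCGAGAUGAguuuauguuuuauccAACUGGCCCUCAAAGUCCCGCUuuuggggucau
MIR193A: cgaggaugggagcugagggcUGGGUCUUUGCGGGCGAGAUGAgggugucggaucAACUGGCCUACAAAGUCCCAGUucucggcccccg
MIR365A: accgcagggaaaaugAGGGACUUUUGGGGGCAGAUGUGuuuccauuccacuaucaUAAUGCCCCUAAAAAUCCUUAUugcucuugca
MIR365B: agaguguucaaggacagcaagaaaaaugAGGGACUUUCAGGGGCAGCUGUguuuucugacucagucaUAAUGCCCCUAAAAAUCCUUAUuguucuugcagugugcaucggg

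The 3p arm of miR-193b dominated the group. hsa-miR-193b-3p had 24840 counts in normoxia and 64435 in hypoxia, which is 5502 CPM (interval 5434 to 5571) and 7492 CPM (7435 to 7550). Only 11 mature names had more counts in normoxia and 10 in hypoxia, so it was among the most abundant miRNAs of the line. Because miR-21-5p took 72.2% and 68.4% of mature counts, miR-193b-3p was 0.550% and 0.749% of all mature counts but 1.98% and 2.37% of those that were not miR-21-5p.

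The shared miR-365 3p sequence came next. The table gives hsa-miR-365a-3p 9093 and 27425 counts and hsa-miR-365b-3p 9114 and 27455 counts, in normoxia and hypoxia. The entries differed by 21 and 30 counts, where reads divided at random between the names would differ by an SD of 135 and 234, and the entries of miR-199a-3p and miR-199b-3p, which are also identical, differed by 5 and 2. Entries this close do not tell whether each read was counted under both names or reads were divided evenly. Because the names share the sequence, miR-365-3p was taken as 1 measurement, the mean of both entries rounded up, with 9104 and 27440 counts. Had reads been divided evenly, the sum of the entries would be the right count and the level of miR-365-3p would be higher. By the mean, its level was 2016 CPM (1975 to 2058) in normoxia and 3191 CPM (3153 to 3229) in hypoxia, with 37 and 26 names above it. These reads cannot be assigned to chromosome 16 or 17.

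The remaining arms were far lower. hsa-miR-193a-3p, which carries the same seed as miR-193b-3p, had 170 and 363 counts, or 37.7 CPM (32.2 to 43.8) and 42.2 CPM (38.0 to 46.8). hsa-miR-193a-5p had 115 and 139 counts, or 25.5 CPM (21.03 to 30.57) and 16.2 CPM (13.6 to 19.1). hsa-miR-193b-5p had 61 and 127 counts, or 13.5 CPM (10.3 to 17.4) and 14.8 CPM (12.3 to 17.6). The order of the 5 sequences was the same in both libraries, and neighbours in it had intervals that did not overlap, except miR-193a-5p and miR-193b-5p in hypoxia.

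**Figure D2:**
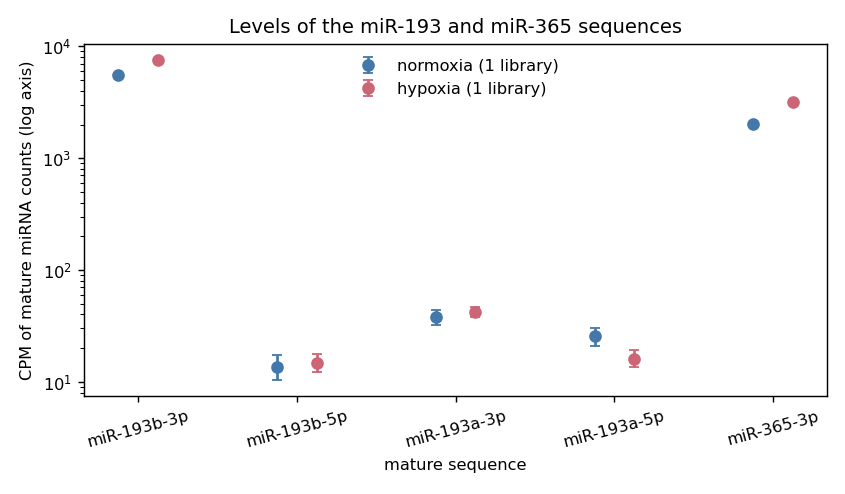
Level of each mature sequence in CPM of mature miRNA counts (vertical log axis) in the normoxia and hypoxia libraries, with 95% Clopper-Pearson intervals for counting error. miR-193b-3p (5502 and 7492 CPM) and miR-365-3p (2016 and 3191 CPM) stand far above the other 3 arms, which lie between 13.5 and 42.2 CPM.

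Summed over the 5 sequences, the group took 7595 CPM (7515 to 7676) in normoxia and 10756 CPM (10687 to 10825) in hypoxia, or 9611 and 13947 CPM with the miR-365-3p entries added in place of their mean. miR-193b-3p gave 72.4% and 69.7% of these counts and miR-365-3p 26.6% and 29.7%. The other 3 arms together gave 1.01% and 0.680%.

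The paralogous hairpins differed in how evenly their arms were used. The 3p arm made up 99.76% (99.69% to 99.81%) of the 24901 miR-193b counts in normoxia and 99.80% (99.77% to 99.84%) of the 64562 in hypoxia, a ratio of 407 and 507 counts per count of the 5p arm. For miR-193a it made up 59.6% (53.7% to 65.4%) of 285 counts and 72.3% (68.2% to 76.2%) of 502, a ratio of 1.48 and 2.61. The 3p arm was thus the more abundant arm of both hairpins in both libraries, by a wide margin in one paralog and by a narrow margin in the other.

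Set beside the 73 hairpin names with both arms past the expression filter described below, 3 of the other 72 had a more unequal split than miR-193b and 63 a more unequal split than miR-193a, by CPM summed over both libraries. The median share of the more abundant arm was 89.4%, and it was the 3p arm in 26 of the 73. miR-365 is not among these names, because hsa-miR-365a-5p had 1 and 4 counts and hsa-miR-365b-5p is not listed. The filter leaves out other hairpins with a nearly absent minor arm in the same way. The ranks and the median share therefore hold among the 73 names only and lean toward even splits.

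The contrast between the loci therefore depended on the arm. miR-193b-3p had 146 counts per count of miR-193a-3p in normoxia (126 to 171) and 178 in hypoxia (160 to 197). miR-193b-5p had 0.530 counts per count of miR-193a-5p in normoxia (0.382 to 0.730) and 0.914 in hypoxia (0.713 to 1.17). With both arms summed, miR-193b exceeded miR-193a 87.4-fold (77.7 to 98.5) and 129-fold (118 to 141). The chromosome 16 paralog was higher by its 3p arm, while by the 5p arm it was lower in normoxia and not told apart from its paralog in hypoxia.

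Against miR-193b-3p, whose hairpin neighbours MIR365A on chromosome 16, the miR-365-3p sequence had 0.367 counts per count in normoxia (0.358 to 0.375) and 0.426 in hypoxia (0.420 to 0.432). With the miR-365-3p entries added in place of their mean, the ratios were 0.733 and 0.852. Against miR-193a-3p, whose hairpin neighbours MIR365B on chromosome 17, it had 53.6 counts per count (46.0 to 62.7) and 75.6 (68.2 to 84.1). All 5 sequences compared are 22 bases long, but a ratio between different sequences also contains how well each was ligated and aligned, and this cannot be told apart from their abundance.

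**Figure D3:**
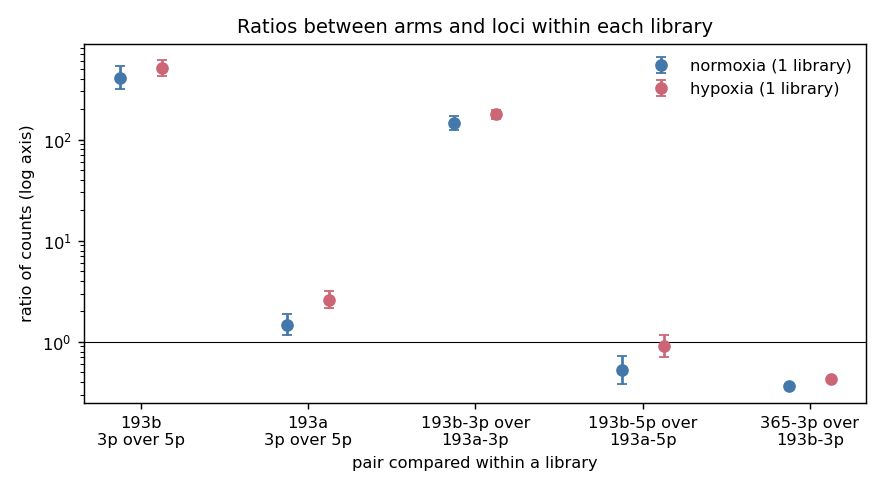
Ratios of counts within each library on a log axis, with 95% exact conditional intervals and a line at a ratio of 1. The 3p arm exceeds the 5p arm by 407 and 507 for miR-193b against 1.48 and 2.61 for miR-193a, and the paralogs differ by 146 and 178 in the 3p arm against 0.530 and 0.914 in the 5p arm.

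The libraries were then compared with each other. miR-193b-3p was higher in the hypoxia library by 1.36-fold, a log2 ratio of 0.45 (0.42 to 0.47), and miR-365-3p by 1.58-fold, a log2 ratio of 0.66 (0.63 to 0.70). miR-193a-5p was lower in hypoxia, at 0.635 of its normoxia level and a log2 ratio of -0.66 (-1.02 to -0.29). The intervals of miR-193a-3p, with a log2 ratio of 0.16 (-0.10 to 0.44), and of miR-193b-5p, with 0.13 (-0.32 to 0.59), held 0. With 1 library per condition these ratios describe the libraries, and a difference between cultures cannot be told apart from a difference in oxygen.

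A miRNA was called higher or lower when its log2 ratio reached 0.9 in either direction, given a mean above 8 CPM and counts in both libraries. By this rule 0 of the 5 sequences were higher and 0 were lower. Among the 338 mature miRNA names past this filter, 3.85% were higher and 3.25% lower. These are 13 and 11 names, and the balance turned with the scaling, to 9 and 15 with TMM factors, 11 and 15 with DESeq2 size factors, 6 and 19 without the 10 most abundant miRNAs, 6 and 18 without miR-21-5p and 9 and 15 with all counts. Under each of these scalings 0 of the 5 sequences were called. The counting interval lay above 0 for 2 of the 5 sequences and below it for 1, against 37.0% and 26.6% of the 338, so intervals that leave out 0 were common in these libraries. The median log2 ratio was 0.16 over the 5 sequences and 0.08 over the 338 names, whose quartiles were -0.22 and 0.39. miR-365-3p lay above the upper quartile, with 30 of the 336 other names higher, as did miR-193b-3p, with 66 of 337 higher. miR-193a-5p lay below the lower quartile, with 22 of 337 lower. For comparison, miR-210, a widely used hypoxia marker, had a log2 ratio of 1.48 (1.43 to 1.52).

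**Figure D4:**
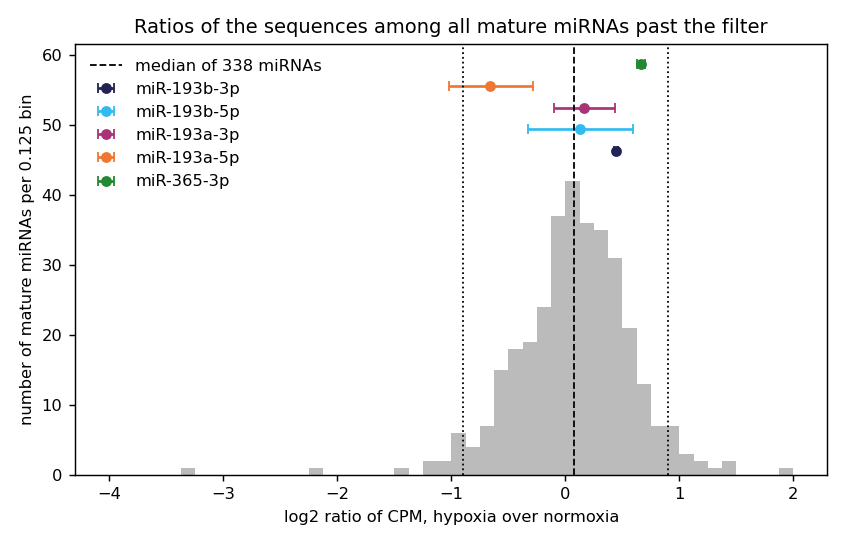
Histogram of the log2 ratio of CPM, hypoxia over normoxia, for 338 mature miRNA names, with the 5 sequences above it as points with 95% counting intervals. The dashed line is the median of 0.08 and the dotted lines are the limits for a call at 0.9, which 0 of the 5 points reach in either direction.

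The sign of the ratios of miR-193b-5p and miR-193a-3p depended on the scaling. When the libraries were scaled by totals without the 10 most abundant miRNAs, the median of all 338 names moved by -0.20, miR-193b-5p went to -0.07 and miR-193a-3p to -0.03, and without miR-21-5p alone they went to -0.06 and -0.02. The sign was kept under each of the 6 scalings by miR-193b-3p, from 0.25 to 0.45, by miR-365-3p, from 0.47 to 0.66, and by miR-193a-5p, from -0.85 to -0.66. Relative to the median of the names, which no scaling affects, the log2 ratios were 0.37 for miR-193b-3p, 0.58 for miR-365-3p, 0.09 for miR-193a-3p, 0.05 for miR-193b-5p and -0.73 for miR-193a-5p.

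**Figure D5:**
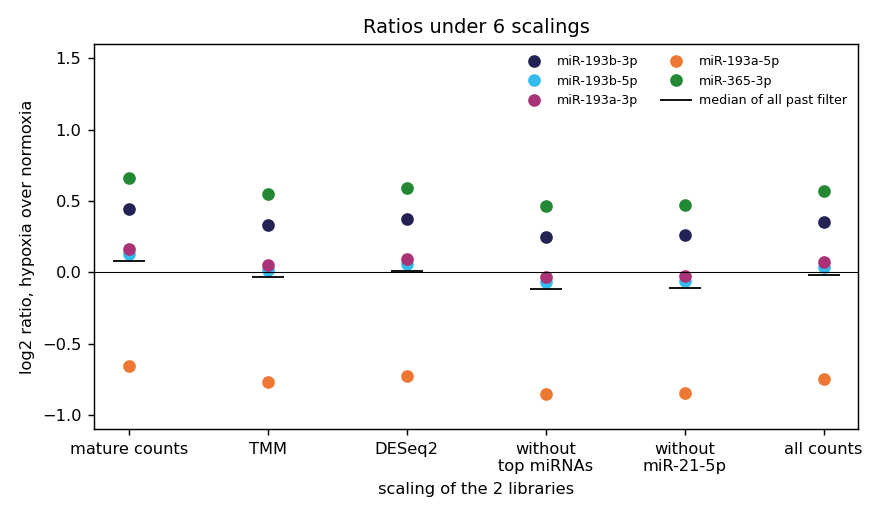
Log2 ratio of the 5 sequences, hypoxia over normoxia (vertical axis), under 6 scalings of the libraries (horizontal axis), with the median of all names past the filter as a black bar. All points of a column shift together, miR-365-3p and miR-193b-3p stay above 0, miR-193a-5p stays below it, and the 2 remaining arms cross 0.

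Differences between ratios do not depend on scaling. The 3p arm of miR-193a gained on its 5p arm by 1.77-fold between the libraries (1.28 to 2.43), a log2 difference of 0.82 (0.36 to 1.28). For miR-193b the same change was 1.25-fold (0.902 to 1.70), with an interval that held 1. Of the 72 other hairpin names, 14 differed more between their arms than miR-193a and 46 more than miR-193b, around a median absolute log2 difference of 0.43.

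The miR-193b to miR-193a ratio was 1.47-fold larger in hypoxia with both arms summed (1.27 to 1.71), 1.21-fold for the 3p arms (1.01 to 1.46) and 1.72-fold for the 5p arms (1.14 to 2.60). miR-365-3p gained on miR-193b-3p by 1.16-fold (1.13 to 1.19) and on miR-193a-3p by 1.41-fold (1.17 to 1.70). On the log2 scale the difference between miR-365-3p and its chromosome 16 partner was 0.22, against 0.50 for its chromosome 17 partner. Which hairpin the shared sequence came from was not tested.

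The rest of each locus left few counts. The table also has an entry for each whole hairpin, and where the reads of these entries lie was not tested. Each had fewer counts than the 3p arm of its hairpin, while the MIR365A entry had more than hsa-miR-365a-5p. The MIR193B entry had 19 counts in normoxia and 71 in hypoxia (4.21 and 8.26 CPM, log2 ratio 0.97, interval 0.23 to 1.79). The MIR365A entry had 8 and 29 counts (log2 ratio 0.93, -0.24 to 2.27), the MIR365B entry 5 and 5 (-0.93, -3.05 to 1.19) and the MIR193A entry 3 and 0. A count of 0 allows up to 3 counts as a one-sided limit, and no ratio was computed for MIR193A.

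In level, over the 2 libraries, the miRNA nearest to each sequence outside the group was found by distance in log2 CPM. It was miR-30c-5p for miR-193b-3p (5461 and 8161 CPM, distance 0.12), miR-224-5p for miR-365-3p (2155 and 2995 CPM, 0.13), miR-4517 for miR-193a-3p (39.9 and 38.6 CPM, 0.15), miR-17-3p for miR-193a-5p (27.7 and 16.4 CPM, 0.12) and miR-1285-5p for miR-193b-5p (13.5 and 14.9 CPM, 0.01). These pairs share both libraries and only 2 points, so the likeness is one of level alone.

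The promoters of both host genes were searched for ACGTG and GCGTG, the core motif bound by hypoxia-inducible factors, on both strands. In the window from 250 bases before to 50 after the RefSeq start, MIR193BHG and MIR365BHG had 0 matches each, while 48.4% of all 35116 promoters of this length had at least 1. The search does not cover sites outside this window, and MIR193A lies in neither host gene. Whether hypoxia-inducible factors act on these loci was not tested.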

How the data were processed

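The values are counts of reads on each small RNA, without normalization, as deposited for the 2 libraries. The submitters' processing notes name hg19, and libraries were made with a ligation kit for SOLiD and amplified by 11 and then 4 cycles of PCR. The aligner, counter and annotation release are not given in the sources used here. Every listed feature has at least 3 counts over both libraries, so one that is not listed may have had fewer. All 6449337 counts in normoxia and 13115226 in hypoxia were read, and ratios used the 859 mature miRNA names.

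CPM has the mature total as its denominator. Shares have exact Clopper-Pearson intervals and ratios exact conditional binomial intervals (Python version 3.11.15, scipy version 1.17.1). No test was run, because neither condition was repeated. Alternatives used TMM in edgeR version 4.0.16, size factors of DESeq2 version 1.42.0 (R version 4.3.3), other totals, prior counts of 2 and 0.5, thinning of the deeper library, and other filters and thresholds. The calculation was tested on simulated data. Of the listed names, 687 matched RefSeq by name.

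Named miRNAs are the group, other arms of its hairpins, other names with the same seeds, the nearest miRNA in level to each sequence, miR-21-5p and miR-210. Outside this rule, miR-199a-3p and miR-199b-3p were named after their values were seen. Members and lists were chosen with earlier results of these data known.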

Additional observations from a re-analysis of the deposited data

Results flagged for a closer look

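The entry for the whole MIR193B hairpin, which is separate from the entries of its mature arms, had 71 counts in hypoxia against 19 in normoxia. Its log2 ratio was 0.97 (interval 0.23 to 1.79). The other entries at these loci were flagged when they had more than 3 counts in hypoxia and an interval above 0. This interval is therefore part of the rule and adds no support. Among the 338 names past the expression filter, 37.0% had an interval above 0. The levels of the MIR193B entry, 8.26 CPM in hypoxia and 4.21 CPM in normoxia, have a mean below that filter, and no repeat library bears on it.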

How the results depend on the processing

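No paired analysis was possible because only 1 library per oxygen level was made, which also meant that none could be left out. Of 77 alternative values, 51 stayed within the counting interval or kept their count, 24 moved and 2 reversed. Among the 51, 4 changed sign where the counting interval already held 0: miR-193b-5p went from 0.13 to -0.07 and miR-193a-3p from 0.16 to -0.03 without the 10 most abundant miRNAs, and to -0.06 and -0.02 without miR-21-5p. The log2 ratio of miR-193b-3p went from 0.45 to 0.33 with TMM, 0.38 with DESeq2 size factors, 0.25 without the 10 most abundant miRNAs, 0.26 without miR-21-5p and 0.35 with all counts. For miR-365-3p it went from 0.66 to 0.55, 0.59, 0.47, 0.47 and 0.57 under the same scalings. A threshold of 1.5-fold called 1 sequence higher (miR-365-3p) and 1 lower (miR-193a-5p) in place of 0 and 0, and called 39 and 29 of the 338 names. The calls over these names were 13 higher and 11 lower (54.2% higher), but 9 and 15 (37.5%) with TMM, which moved their median by -0.11, 11 and 15 (42.3%) with DESeq2, 6 and 19 (24.0%) without the 10 most abundant miRNAs, 9 and 15 with all counts, and 6 and 18 (25%) without miR-21-5p. Without a filter, and with a prior count of 2 added to the ratios, 113 and 64 of 859 names were called. A log2 threshold of 1, or a mean of at least 20 CPM, left 9 and 7. A change of scaling adds the same constant to every log2 ratio, so these values moved together with the median. Why the scaling factors differed was not tested.

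By construction, the summed level of the group was 5317 and 7053 CPM with all counts as the denominator, 27329 and 33994 CPM without miR-21-5p, and 9611 and 13947 CPM with the miR-365-3p entries added. That sum also took miR-365-3p over miR-193b-3p to 0.733 and 0.852. The miR-193b to miR-193a ratio, 87.4 and 129 with both arms, was 146 and 178 for the 3p arms and reversed to 0.530 and 0.914, below 1, for the 5p arms. In hypoxia the interval of the latter, 0.713 to 1.17, held 1. Its log2 change of 0.56 was 0.28 for the 3p arms and 0.78 for the 5p arms. In 1 random thinning of the deeper library, the log2 ratio of miR-193a-5p went from -0.66 to -0.44 and that of miR-193b-5p from 0.13 to 0.28. Both values lay within the counting intervals of the full counts, and an effect of depth was not tested.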

Other observations

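The entries for whole hairpins are listed by locus, and they were compared after their values were seen. Whether their reads separate MIR365A from MIR365B, which share the 3p sequence, was not tested. On chromosome 16, MIR193B and MIR365A together had 27 counts in normoxia and 100 in hypoxia. On chromosome 17, MIR193A and MIR365B together had 8 and 5. The ratio of the loci was 3.38 (1.49 to 8.60) in normoxia and 20.0 (8.29 to 62.9) in hypoxia, a 5.93-fold change whose interval runs from 1.54 to 24.6. Between the miR-365 hairpins alone the ratio was 1.6 (0.462 to 6.22) and 5.8 (2.22 to 19.2), and the interval of its change, 0.638 to 19.9, held 1. What these reads are was not tested.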
